A study of Mus musculus with 36 samples.

Results

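The genes that make, destroy and read cyclic AMP (cAMP) were followed through 4 brain regions and 3 behavioural conditions of the mouse. They were chosen by name: the protein-coding genes of the adenylyl cyclase series (Adcy and a number), of the cyclic nucleotide phosphodiesterase series (Pde, a number and a letter), and the catalytic (Prkaca, Prkacb) and regulatory (Prkar1a, Prkar1b, Prkar2a, Prkar2b) subunits of the cAMP-dependent protein kinase, PKA. Of such genes 39 were matched among the 37315 of the count table: 10 cyclases, 23 phosphodiesterases, 2 catalytic and 4 regulatory subunits. Pde2a also fits these names, but its identifier was not matched to the count table and it is left out. The libraries were polyA RNA from wild-type (WT) mice of BL/6 background, housed singly and handled for 3 minutes on each of 5 days. One set of mice stayed in the home cage, one was exposed to a context and one received a foot shock (called fear here), and the tissue was taken 90 minutes after the behaviour. From each condition, 2 fields of the hippocampus (CA1, CA3) and 2 divisions of entorhinal cortex, medial (MEC) and lateral (LEC), were dissected, and each of the 12 groups had 3 libraries. The labels give no age or sex, nor which mouse a library came from. Regions may therefore share mice, and p-values measure only the spread between these libraries.

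Adenylyl cyclases at the membrane turn ATP into cAMP when G proteins coupled to receptors activate them, and some of them also respond to calcium through calmodulin. Cyclic AMP binds the regulatory subunits of PKA and frees the catalytic subunits, which phosphorylate channels, receptors and the transcription factor CREB; phosphodiesterases end the signal by hydrolysing cAMP, cGMP or both. In the hippocampus and its cortical inputs this pathway is known for its part in lasting synaptic plasticity and memory.

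Library totals ran from 21871412 to 68974340 counts (median 28098008), of which the 39 genes held 0.339% to 0.593%. At this depth 31 of the 39 had at least 10 counts in every library, and Adcy4, Adcy10, Pde4c, Pde6a, Pde6b, Pde6c, Pde6g and Pde6h did not. Against marker lists, 6 of 6 entorhinal markers were higher in the entorhinal regions, 5 of 6 CA1 markers were lower in CA3 than in CA1, and 6 of 7 CA3 markers were higher there. All 8 dentate granule cell markers were higher in CA1 than in CA3, with summed levels of 178 to 735 CPM (read counts scaled to library size) in CA1, 124 to 383 CPM in CA3, 83.6 to 150.2 CPM in LEC and 67.2 to 111 CPM in MEC. The 9 oligodendrocyte markers summed to 3646 to 12230 CPM in CA1, 5303 to 12570 CPM in CA3, 1143 to 1735 CPM in LEC and 1560 to 3338 CPM in MEC. These are whole-tissue libraries, in which fewer cells of a type and less RNA per cell cannot be told apart.

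Levels of different genes were compared per kilobase of exonic length, the union of all annotated exons of a gene. Adcy1, a cyclase stimulated by calcium and calmodulin, had the highest level of the 10 cyclases in all 4 regions. It stood at 156 ± 26.8 CPM per kilobase in CA1 (mean ± SD, n = 9 libraries over the 3 conditions) and 60.2 ± 14.1 in CA3, against 66.6 ± 8.83 in LEC and 105 ± 20.3 in MEC. This was 40.6% to 58.4% of the summed cyclase level. Adcy2, a cyclase stimulated by G protein beta-gamma subunits, came next with 20.9% to 24.3%. The lowest was Adcy10, the soluble cyclase that responds to bicarbonate, at 0.119 CPM per kilobase in CA1 and 0.0653 in CA3, against 0.175 in LEC and 0.25 in MEC. The summed cyclase level was 268 ± 41.6 CPM per kilobase in CA1 and 148 ± 25.6 in CA3, against 156 ± 16.7 in LEC and 199.7 ± 29.1 in MEC.

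Among the 23 phosphodiesterases matched, Pde1a and then Pde1b led in all 4 regions. Because Pde2a was not matched, the ranks, shares and sums of this family are without it. Both encode calmodulin-dependent enzymes that hydrolyse cAMP and cGMP. Pde1a stood at 39.0 ± 10.8 CPM per kilobase in CA1 and 58.3 ± 13.4 in CA3, against 69.6 ± 8.15 in LEC and 52.7 ± 11.7 in MEC, or 27.3% to 39.2% of the summed phosphodiesterase level. The photoreceptor enzymes Pde6a and Pde6b, which hydrolyse cGMP in the retina, lay at the bottom: Pde6a was lowest in the hippocampal fields (0.0162 CPM per kilobase in CA1, 0.0058 in CA3) and Pde6b in the entorhinal regions (LEC 0.0382, MEC 0.0289). Pde6d, whose product is a carrier of prenylated proteins and not a catalytic subunit, was 10.9 to 12.3 CPM per kilobase in the 4 regions. Among the 39 genes its region means differed least (highest to lowest 1.13) after those of Pde7a, a cAMP-specific enzyme (1.11). The summed phosphodiesterase level was 143 ± 11.05 CPM per kilobase in CA1 and 149 ± 16.1 in CA3, against 188 ± 6.32 in LEC and 177 ± 7.53 in MEC.

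Per kilobase, the transcripts of the regulatory subunits of type I PKA exceeded those of type II. Prkar1a was 150.1 to 191 CPM per kilobase on average in the 4 regions and Prkar1b, its neuronal counterpart, 115 to 195. Prkar2a and Prkar2b, the subunits that dock type II PKA to anchoring proteins, together made 5.18% to 8.57% of the regulatory sum. Of the catalytic subunits, the mean of Prkaca exceeded that of Prkacb in CA1, CA3 and MEC, and Prkacb exceeded Prkaca in LEC. This order rests on the exonic lengths, 2488 bases for Prkaca and 8772 for Prkacb. In CPM Prkacb was higher than Prkaca in every library.

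**Figure D1:**
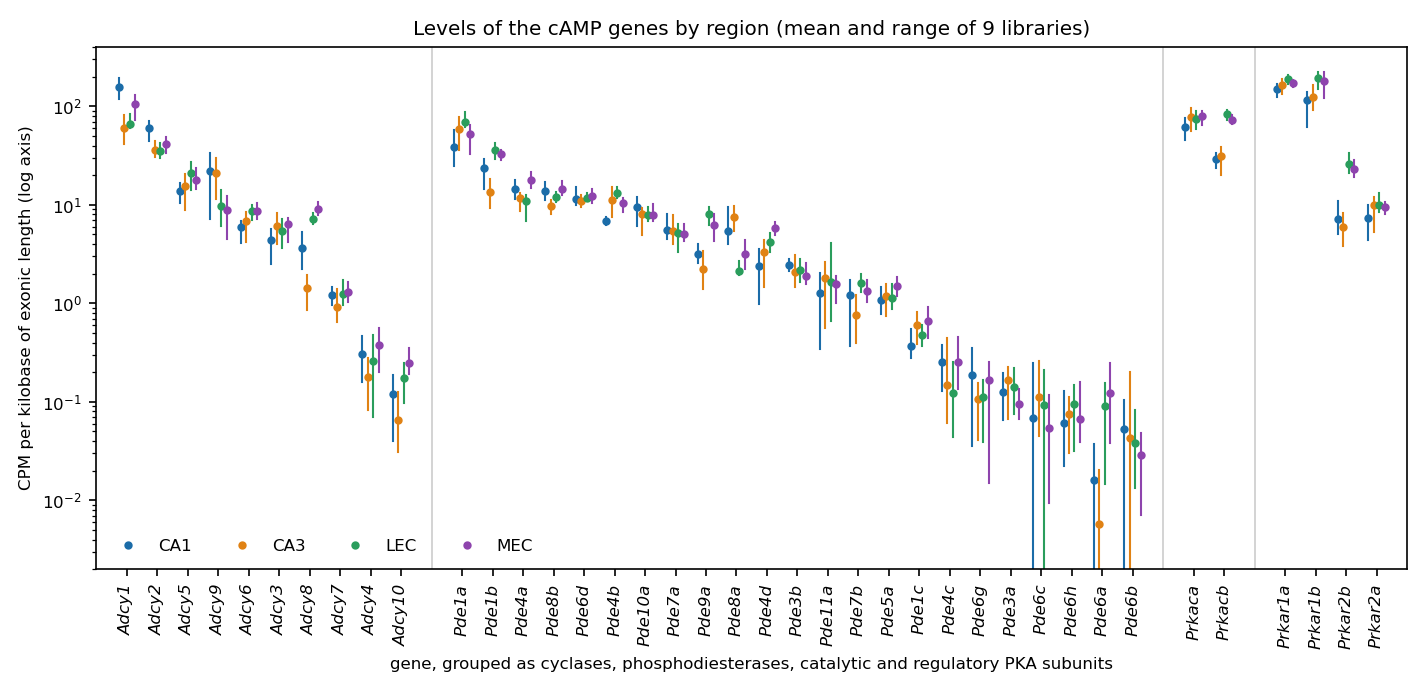
Level of each of the 39 genes in CPM per kilobase of exonic length (log axis) in the 4 regions; points are means and bars the range of 9 libraries, and a bar that reaches the lower edge includes a library with 0 counts. Adcy1, Pde1a, Prkar1a and Prkar1b stand at the top of their families, and most Pde6 genes lie below 1 CPM per kilobase.

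Entorhinal cortex was compared with the hippocampal fields, averaged over the 3 conditions. Of the 39 genes 25 were called (64.1%), 21 higher and 4 lower in the entorhinal regions, where 50.9% of all genes tested were called (25.5% higher and 25.4% lower). A gene was called at an adjusted p under 0.05, with Benjamini-Hochberg adjustment over all genes tested in edgeR's quasi-likelihood test. The median log2 difference of the 39 genes was 0.20, and that of all genes -0.02. All 6 PKA subunits were called higher in the entorhinal average, as were 5 of 10 cyclases and 10 of 23 phosphodiesterases.

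Prkar2b, the regulatory subunit known as the main type II form of brain, was 18.3 to 40.1 CPM in CA1 (median 25.4), 14.0 to 30.5 in CA3 (21.4), 76.8 to 124 in LEC (90.8) and 70.2 to 103 in MEC (86.6). No hippocampal library reached an entorhinal one, and the log2 difference was 1.93 ± 0.08 (SE; adjusted p = 3.101e-19). Prkacb, one of the catalytic subunits, was 207 to 295 CPM in CA1 (median 249), 176 to 337 in CA3 (275), 633 to 797 in LEC (742) and 579 to 711 in MEC (641). It separated the regions in the same way, with a log2 difference of 1.39 ± 0.06 (adjusted p = 1.143e-19). The other subunits differed less, by 0.65 ± 0.07 for Prkar1b, 0.21 ± 0.07 for Prkar2a, 0.20 ± 0.04 for Prkar1a and 0.16 ± 0.07 for Prkaca. Region by region, the mean of Prkaca was higher in CA3 than in LEC and that of Prkar2a higher in CA3 (9.85 CPM per kilobase) than in MEC (9.49). Prkaca was called in 3 of 9 fits that each left out the same replicate of 1 condition in all regions, those without home cage 3, context 1 and fear 2.

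The transcripts of the subunits were therefore in different proportions, and protein was not measured. The level of Prkacb per kilobase was 0.37 to 0.576 times that of Prkaca in CA1 libraries and 0.352 to 0.564 times in CA3, against 0.871 to 1.53 times in LEC and 0.741 to 1.14 times in MEC. Prkar2b was 0.541 to 1.67 times Prkar2a in CA1, 0.438 to 0.73 times in CA3, 2.03 to 3.32 times in LEC and 1.96 to 3.05 times in MEC. In both ratios every entorhinal library lay above every hippocampal one. The ratio of Prkar1b to Prkar1a overlapped between all regions.

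**Figure D2:**
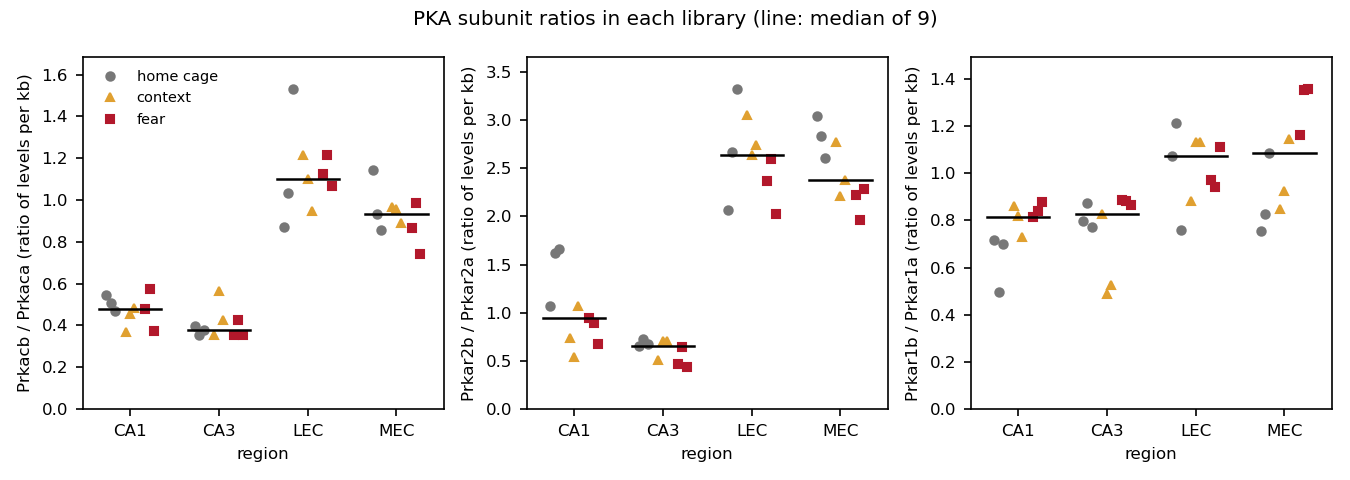
Ratio of the per-kilobase levels of paired PKA subunits in each of the 36 libraries by region, with symbols for the condition and a line at the median of 9. Prkacb to Prkaca and Prkar2b to Prkar2a are higher in every LEC and MEC library than in any CA1 or CA3 library, and Prkar1b to Prkar1a overlaps.

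Adcy8, the other classic cyclase stimulated by calcium and calmodulin, was 17.99 to 43.4 CPM in CA1 (median 29.7), 7.03 to 15.7 in CA3 (12.7), 51.7 to 67.5 in LEC (59.4) and 64.4 to 88.1 in MEC (74.0). It was lowest in CA3, next in CA1 and highest in the entorhinal regions, without overlap between these 3 steps. The log2 difference between entorhinal and hippocampal regions was 1.87 ± 0.08 (adjusted p = 9.539e-19). Set against Adcy1, the per-kilobase level of Adcy8 was 0.0164 to 0.0404 times as high in CA1 and 0.0191 to 0.0306 times in CA3, but 0.0931 to 0.128 times in LEC and 0.0742 to 0.112 times in MEC. Pde9a, a phosphodiesterase specific for cGMP, was 9.18 to 14.1 CPM in CA1 (median 11.3), 4.95 to 12.05 in CA3 (7.60), 22.2 to 33.3 in LEC (29.0) and 15.1 to 28.7 in MEC (22.4), a log2 difference of 1.42 ± 0.07. Pde1b was 77.2 to 159 CPM in CA1 (median 138), 50.5 to 99.2 in CA3 (71.4), 159 to 230.0 in LEC (202) and 155 to 195 in MEC (188), a log2 difference of 0.95 ± 0.07. Pde9a kept entorhinal and hippocampal libraries apart, and for Pde1b the lowest MEC value lay within the range of CA1.

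The genes lower in the entorhinal average were Pde8a, Adcy9, Adcy2 and Adcy1. Pde8a, a high-affinity cAMP phosphodiesterase, was 16.2 to 38.2 CPM in CA1 (median 19.9), 21.8 to 39.0 in CA3 (28.9), 7.79 to 10.8 in LEC (8.12) and 9.05 to 17.96 in MEC (12.96), a log2 difference of -1.32 ± 0.09 (adjusted p = 1.819e-14). Adcy9, a widely expressed cyclase that forskolin barely stimulates, was 37.1 to 176 CPM in CA1 (median 119), 59.5 to 156 in CA3 (110.5), 31.4 to 72.7 in LEC (49.5) and 23.6 to 63.4 in MEC (46.3), a log2 difference of -1.20 ± 0.12. Adcy9 overlapped between every neighbouring pair of regions and varied widely within each. Adcy2 differed by -0.27 ± 0.04 and Adcy1 by -0.21 ± 0.06, and for both CA1 was the high region: the mean of Adcy1 was higher in LEC and MEC than in CA3, and that of Adcy2 was higher in MEC than in CA3 (41.68 against 36.04 CPM per kilobase).

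The oligodendrocyte markers moved with this contrast (9 of 9 lower in the entorhinal regions, median log2 difference -1.98), as did the dentate granule cell markers (7 of 8 lower, median -2.69). Also called were markers of CA3 pyramidal cells (6 lower and 1 higher of 7), choroid plexus (5 of 7 lower) and striatum (5 of 7 higher). Cortical layers (6 higher and 1 lower of 8) and mural and meningeal cells (6 higher and 1 lower of 9) were called too. So were interneurons (4 higher and 1 lower of 8), thalamus (3 higher and 1 lower of 5) and CA1 pyramidal cells (2 higher and 3 lower of 6). Some markers of other lists were called as well, and the part of all these in the result was not tested. With the mean log2 CPM of the oligodendrocyte markers as a covariate 10 of the 39 genes were called (13% of all genes). With that of the granule cell markers 13 were called (18.6% of all genes). The summed oligodendrocyte levels of all entorhinal libraries lay below those of all hippocampal ones, so this covariate and the region cannot be told apart. Prkacb, Prkar2b, Adcy8, Pde9a, Adcy9 and Adcy2 were called under both covariates. Pde8a fell to a log2 difference of -0.09 with the oligodendrocyte covariate and was -1.58 with the granule cell covariate. Adcy1 became -0.65 with the oligodendrocyte covariate and 0.25, not called, with that of granule cells. Prkaca, Prkar1a, Prkar1b and Prkar2a were called under neither, and Prkar2a and Prkaca changed sign with the oligodendrocyte covariate (-0.19 and -0.01).

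Between the hippocampal fields, 22 of the 39 genes were called (56.4%), 8 higher and 14 lower in CA3, where 31% of all genes tested were called (16.4% higher and 14.6% lower). Of the 10 cyclases 5 were lower in CA3 and 1, Adcy3, was higher. Adcy1 was 520 to 1024 CPM in CA3 (median 804) and 1478 to 2434 CPM in CA1 (median 1882), so that no CA3 library reached the lowest CA1 library, and the log2 difference was -1.39 ± 0.09 (adjusted p = 3.978e-13). Adcy8 differed by -1.36 ± 0.12 and Adcy2 by -0.73 ± 0.06, with Adcy2 at 128 to 189 CPM in CA3 and 186 to 296 CPM in CA1. Of the phosphodiesterases, Pde1b was lower in CA3 by 0.82 on the log2 scale (-0.82 ± 0.10). Pde7b, a cAMP-specific enzyme, was 4.96 to 15.1 CPM in CA3 (median 9.29) and 4.62 to 21.4 in CA1 (median 14.6), so that the CA3 range lay within that of CA1, with a difference of -0.63 ± 0.21. With the dentate granule cell covariate Pde7b turned to 0.22 and was not called.

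Higher in CA3 were Pde4b, Pde1c, Pde1a, Pde4d and Pde8a. Pde4b, a cAMP-specific enzyme of the rolipram-sensitive group, was 79.2 to 161 CPM in CA3 (median 121) and 65.4 to 78.7 CPM in CA1 (median 73.9). Every CA3 library exceeded every CA1 library, with a log2 difference of 0.70 ± 0.07 (adjusted p = 2.039e-09). Pde1c, a calmodulin-dependent enzyme like Pde1a and Pde1b, was 7.71 to 16.5 CPM in CA3 and 5.65 to 10.96 CPM in CA1. It differed by 0.69 ± 0.13, Pde1a by 0.59 ± 0.10, Pde4d by 0.48 ± 0.13 and Pde8a by 0.46 ± 0.12, each with overlapping ranges. The oligodendrocyte markers were 5 of 9 higher in CA3 (median 0.43), and lower there were markers of microglia (7 of 8), endothelium (4 of 7) and blood (4 of 5), whose part was not tested. With the oligodendrocyte covariate 17 of the 39 genes were called (29.2% of all genes), and the calls of Pde8a (0.19), Pde7b, Pde3b, Pde10a, Pde6a and Adcy10 were lost. Pde6a was called in 2 of the 9 fits without a replicate, Pde3b and Pde4c in 3, Pde10a in 4, Pde7b in 5, Adcy10 in 6 and Adcy3 in 8. With the granule cell covariate 12 of the 39 genes were called (19% of all genes): Adcy1, Adcy2, Adcy7, Adcy8, Pde1a, Pde1b, Pde1c, Pde4a, Pde4b, Pde8b, Pde9a and Prkar2a.

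Within the entorhinal cortex 13 of the 39 genes were called (33.3%), 10 higher and 3 lower in MEC, where 17.4% of all genes tested were called (8.8% higher and 8.59% lower). No PKA subunit was among them. Pde4a, another cAMP-specific enzyme of the rolipram-sensitive group, was 113 to 164 CPM in MEC (median 136) and 52.5 to 97.1 CPM in LEC (median 87.7). The regions did not overlap, and the log2 difference was 0.72 ± 0.09 (adjusted p = 3.104e-07). Adcy1 was 907 to 1613 CPM in MEC (median 1326) and 747 to 1043 CPM in LEC (median 786), a difference of 0.64 ± 0.09 with overlap at the edge. Pde4d, a further member of the rolipram-sensitive group, was 59.0 to 79.7 CPM in MEC (median 69.8) and 40.0 to 62.9 CPM in LEC (median 47.5), a difference of 0.48 ± 0.13. Pde8a was higher in MEC by 0.52 ± 0.12 and Pde1c by 0.44 ± 0.13. Lower in MEC were Pde1a (-0.43 ± 0.10), Pde9a (-0.38 ± 0.10) and Pde4b (-0.33 ± 0.07).

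The oligodendrocyte markers were 9 of 9 higher in MEC, with a median log2 difference of 0.90. Of the CA1 pyramidal markers 3 of 6 were called higher and 1 lower (median 0.66). Other called markers were mural and meningeal (4 of 9 higher), CA2 pyramidal (3 of 6 lower) and microglia (3 of 8 lower). Cortical layer markers (2 higher and 2 lower of 8) were called both ways. The part of these other markers was not tested. With the oligodendrocyte covariate 8 of the 39 genes were called (6.69% of all genes). Higher in MEC were Pde4a, Adcy1, Pde8b, Pde5a, Pde4d and Adcy2, and lower were Pde4b and Pde9a. Pde8a turned to -0.05 with that covariate. In the 3 region contrasts, 10 genes were called in each (Adcy1, Adcy2, Adcy8, Pde1a, Pde1c, Pde4b, Pde4d, Pde8a, Pde8b and Pde9a) and 9 in none. Between MEC and LEC, however, Adcy8 was called in 2 of 9 fits without a replicate (those without home cage 1 and fear 2) and under neither covariate. Pde1c was called there in 6 of 9 (not without context 1, context 2 or fear 3) and Adcy2 in 8 (not without context 2). Between entorhinal and hippocampal regions Pde1c (not without home cage 1 or fear 3) and Pde5a (not without context 1 or fear 1) were called in 7 of 9.

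**Figure D3:**
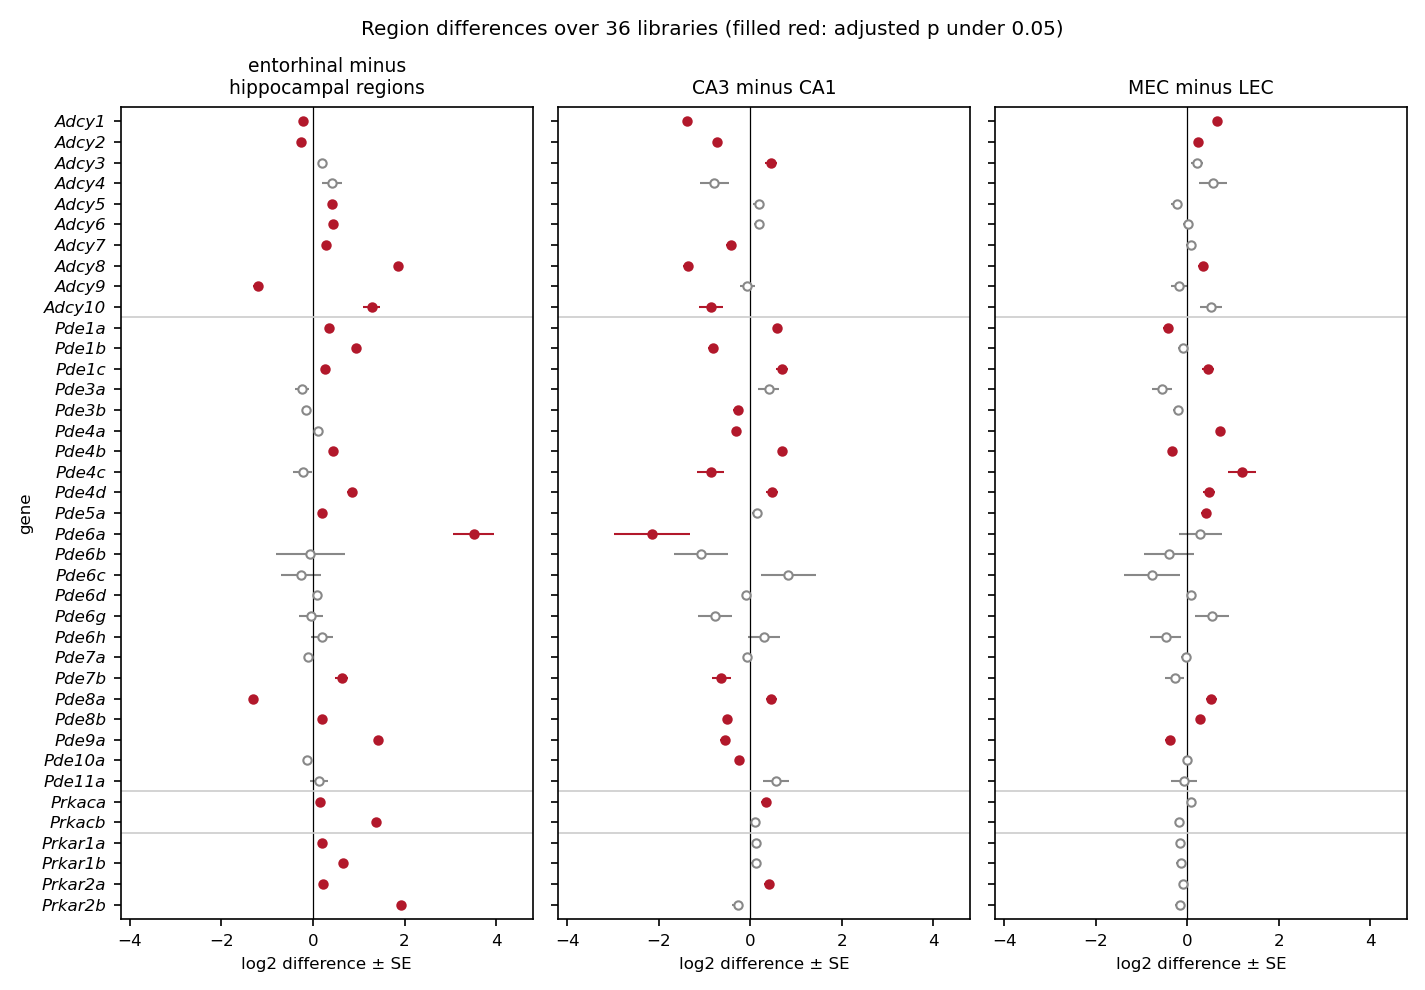
Log2 difference ± SE of each of the 39 genes in the 3 region contrasts, filled red where the adjusted p was under 0.05; grey lines part the cyclases, phosphodiesterases, catalytic and regulatory subunits. All 6 PKA subunits lie to the right of 0 in the first panel, and Adcy1 and Adcy8 lie near -1.39 and -1.36 in the second.

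Between conditions, members were called in MEC after fear and, for 2 genes, in CA3 after context, each against home cage. In MEC after fear 9 of the 37 tested were called (24.3%), 7 higher and 2 lower, where 9.56% of all genes tested were called (5.68% higher and 3.88% lower). They were 3 cyclases, 5 phosphodiesterases and 1 regulatory subunit. The fear and home cage libraries did not overlap in 17 of the 37 tested members, the 9 called ones among them. For the 9 this is no added evidence, because they were chosen by their p-value in the same comparison. The share without overlap over all genes is not given here. The median log2 difference of the 37 genes was 0.13, and that of all genes -0.01.

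All 3 called cyclases were higher. Adcy9 was 23.6, 32.5 and 35.1 CPM in the home cage libraries of MEC, 46.3, 42.7 and 55.3 CPM in the context libraries and 63.4, 59.3 and 54.5 CPM in the fear libraries. Both behavioural groups lay above all home cage libraries, and fear was higher than home cage by 0.93 ± 0.14 on the log2 scale (1.91-fold, adjusted p = 0.001922). Adcy1 was 1033, 907 and 1136 CPM in home cage, 1265, 1326 and 1433 CPM in context and 1609, 1532 and 1613 CPM in fear. The 3 groups were stacked without overlap, and fear exceeded home cage by 0.60 ± 0.09 (1.52-fold, adjusted p = 0.002716). Adcy2 was 148, 145 and 141 CPM in home cage, 192, 183 and 193 CPM in context and 184, 204 and 191 CPM in fear. The context and fear libraries overlapped and both stood above home cage, with a difference of 0.39 ± 0.08 for fear (adjusted p = 0.01329).

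The called phosphodiesterases went both ways. Pde1a was 392, 385 and 335 CPM in home cage, 361, 366 and 313 CPM in context and 278, 223 and 199 CPM in fear. Only the fear libraries were low, below every home cage and context library, and the difference from home cage was -0.69 ± 0.12 (adjusted p = 0.005239). Pde9a was 23.5, 28.5 and 28.7 CPM in home cage, 20.6, 22.4 and 23.4 CPM in context and 20.0, 16.1 and 15.1 CPM in fear, a difference of -0.68 ± 0.13 (adjusted p = 0.008465). The fear libraries were lowest here too, with the highest of them just under the lowest context library. Pde8a was 9.93, 9.37 and 9.05 CPM in home cage, 13.6, 13.4 and 12.96 CPM in context and 12.8, 15.0 and 17.96 CPM in fear, a difference of 0.67 ± 0.14 (adjusted p = 0.01364). It was higher in all 6 behavioural libraries than in home cage. Pde4a was higher in fear by 0.38 ± 0.09 (adjusted p = 0.01987) and Pde8b, the close relative of Pde8a, by 0.35 ± 0.09 (adjusted p = 0.02237).

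The one PKA subunit called was Prkar1b, with 458 to 713 CPM in home cage and 757 to 857 CPM in fear, higher by 0.49 ± 0.14 (adjusted p = 0.04035). The annotation places another transcript, Gm15672, over 8.95% of the exonic length of Prkar1b on the same strand, so its count may be shared. The differences of the other subunits were -0.04 for Prkar1a, 0.23 for Prkar2a, -0.16 for Prkar2b, 0.13 for Prkaca and -0.05 for Prkacb, and none was called.

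**Figure D4:**
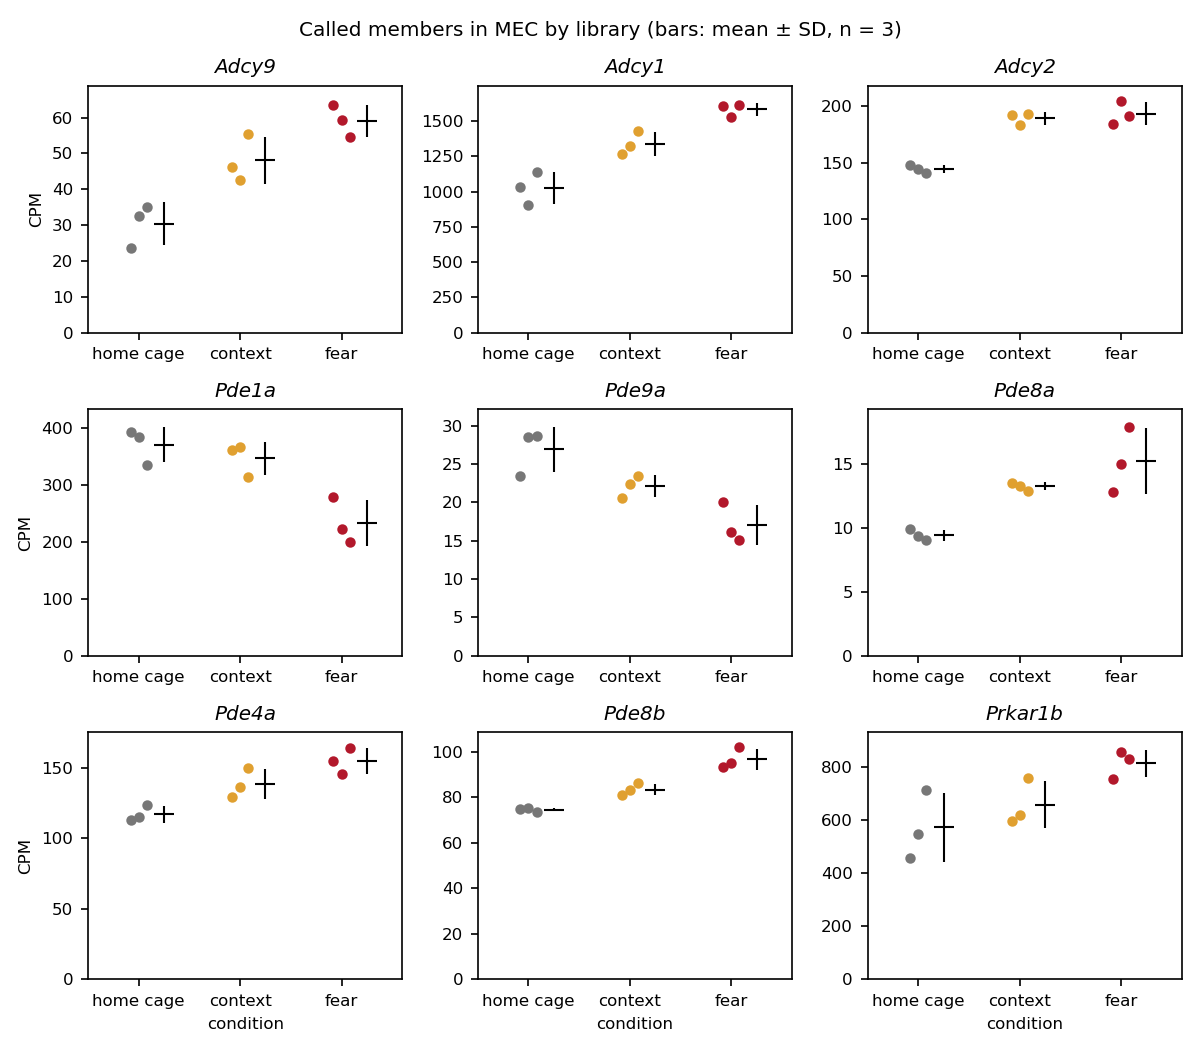
CPM of the 9 genes called in MEC between fear and home cage, in each library of the 3 conditions (3 points each), with mean ± SD beside them. For Adcy1 and Pde8b the home cage, context and fear libraries are stacked in that order without overlap, and Pde1a is low in the fear libraries only.

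The summed oligodendrocyte markers were 1560 to 2266 CPM in the home cage libraries of MEC, 2303 to 2713 CPM in context and 2406 to 3338 CPM in fear, and 5 of 9 were called higher in fear than in home cage. Called too were markers of endothelium (3 of 7 higher), interneurons (2 of 8 higher), CA1 and CA3 pyramidal cells (2 of 6 higher each), cortical layers (2 higher and 2 lower of 8), entorhinal cortex (2 of 6 lower) and astrocytes (2 of 7 lower). The part of these other markers in the result was not tested. Because the oligodendrocyte levels of home cage and fear did not overlap, their part and that of the condition cannot be told apart here. With the oligodendrocyte covariate 1 of the 9 genes was called, Adcy9 (1.29, adjusted p = 0.0488, with 0.472% of all genes called), and all 9 kept their direction, from 0.25 for Adcy2 to 0.63 for Prkar1b among the others that were higher, and at -0.53 for Pde1a and -0.32 for Pde9a. With the covariate the SE of Adcy1 rose from 0.09 to 0.17, and its difference went from 0.60 to 0.56. The SE of Adcy9 rose from 0.14 to 0.25. The count of called members was 4 without fear library 2 (2.49% of all genes), 3 without fear library 3 (1.84%) and 4 without home cage library 2 (3.04%). Adcy9, Adcy1 and Pde1a were called in 9 of 9 fits that each left out 1 MEC library, Pde9a in 8, Adcy2, Pde8a and Pde8b in 6, Pde4a in 5 and Prkar1b in 3. In the fit of all 36 libraries 4 of the 9 were called, Adcy1, Pde9a, Adcy2 and Pde8b, and Adcy9 (0.96, adjusted p = 0.0929) and Pde1a (-0.67, adjusted p = 0.0519) were not.

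In each region the fear and context comparisons share their home cage libraries. After context exposure, 0 of 37 members were called in MEC against home cage, where 0.57% of all genes tested were called (0.497% higher and 0.0736% lower). In edgeR's test 11 members and 2506 of all 16314 genes had an unadjusted p under 0.05, and DESeq2 called 4 members and 3.43% of all genes. The smallest p-values belonged to Adcy9 (0.64 ± 0.14, adjusted p = 0.05573) and Adcy2 (0.36 ± 0.08, adjusted p = 0.06063). Home cage and context libraries of the same number deviated together in MEC (correlations of 0.58, 0.31 and 0.73), but the labels do not say that the number pairs libraries. The fear libraries, which a block by number also covers, did not all correlate above 0.1 with either group. With that number as a block 4 members (and 4.09% of all genes) were called, the members all higher: Adcy9 by 0.64 ± 0.13 (adjusted p = 0.01587), Adcy2 by 0.36 ± 0.08, Adcy1 by 0.37 ± 0.08 and Prkar2a by 0.32 ± 0.09.

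Fear and context libraries of MEC were then compared with each other. No member of 37 was called, nor was any other gene (0%), while 7 members and 2395 of all genes had an unadjusted p under 0.05 in edgeR's test and DESeq2 called 1 member and 0.337% of all genes. Pde1a came closest at -0.57 ± 0.12 (adjusted p = 0.3118), followed by Pde9a at -0.38 ± 0.13. The 3 fear libraries of Pde1a, 278, 223 and 199 CPM, were below the 3 context libraries at 361, 366 and 313 CPM.

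In CA3, context against home cage called 2 of 36 members (5.56%), both higher, where 13.9% of all genes tested were called (5.77% higher and 8.13% lower). Prkar2a was 48.6, 33.6 and 55.4 CPM in home cage, 74.2, 75.3 and 68.1 CPM in context and 71.1, 63.5 and 75.9 CPM in fear. The home cage libraries were the low ones, and context was higher by 0.65 ± 0.17 (adjusted p = 0.04496). Pde4b was 107, 79.2 and 99.2 CPM in home cage, 141, 132 and 161 CPM in context and 121, 95.2 and 139 CPM in fear, with context higher by 0.59 ± 0.16 (adjusted p = 0.04591). Its fear libraries spanned the gap between the other groups.

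These calls in CA3 did not hold when single libraries were left out. Both genes were called in 2 of 9 such fits: 8 members were called without context library 1 (32.7% of all genes) and 10 without home cage library 3 (20.3% of all genes), and 0 without any one of the other 7 libraries of CA3 (3 fear, 2 context and 2 home cage). With the mean log2 CPM of the dentate granule cell markers as a covariate 0 members were called, and Prkar2a was 0.63 and Pde4b 0.42. Those markers summed to 138 to 295 CPM in home cage and 124 to 333 CPM in context, and 1 of 8 was called, as lower. Of 5 blood markers 4 were called lower in context, with summed levels of 32.5 to 55.3 CPM in home cage and 9.73 to 20.8 CPM in context. Microglia (3 of 8 lower), cortical layer (2 of 8 higher), CA3 pyramidal (2 higher and 1 lower of 7) and mural and meningeal markers (1 higher and 2 lower of 9) were called too, and the part of these and the blood markers in the result was not tested.

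After fear, 0 of 36 members were called in CA3 against home cage (0.00619% of all genes), 7 (and 3047 of all 16145 genes) had an unadjusted p under 0.05 in edgeR's test and DESeq2 called 2 (4.08% of all genes). Adcy9 came first with 74.9, 59.5 and 110.5 CPM in home cage and 155, 127 and 156 CPM in fear (0.80 ± 0.20, adjusted p = 0.1501), followed by Prkar2a (0.57 ± 0.17, adjusted p = 0.1619). Without home cage library 3 there were 2 members called (2.79% of all genes), these same genes. Fear against context called 0 of 36 members (0% of all genes), with 9 (and 3785 of all genes) at an unadjusted p under 0.05 and 0 by DESeq2 (4.82% of all genes). Adcy1 (0.56 ± 0.19) and Pde7a (-0.51 ± 0.18) had the smallest p-values, and 5 members were called without context library 1 (20.4% of all genes).

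In CA1, none of the 37 members tested was called in any of the 3 comparisons, nor was any other gene (0%). Against home cage, 11 members had an unadjusted p under 0.05 for fear and 10 for context in edgeR's test, as had 3553 and 3449 of all 16163 genes. DESeq2 called 5 members in each, and 9.02% of all genes for fear and 6.61% for context. For fear the smallest p-values were those of Pde11a, a dual-specificity enzyme, at 5.04, 1.79 and 4.01 CPM in home cage and 7.35, 6.43 and 10.5 CPM in fear (1.14 ± 0.31, adjusted p = 0.081), and of Prkar2a (0.58 ± 0.17, adjusted p = 0.08667). For context they were those of Pde10a, another dual-specificity enzyme, at 98.3, 78.1 and 108 CPM in home cage and 148, 132 and 153 CPM in context (0.60 ± 0.14, adjusted p = 0.1036), and of Pde1a (0.72 ± 0.19, adjusted p = 0.1047). In these 4 cases, picked by their p-values, the home cage libraries were the low group, without overlap. Summed interneuron markers were low there too, at 385 to 501 CPM against 618 to 758 in fear and 635 to 779 in context. Those of CA1 pyramidal cells were 501 to 1155, 651 to 1396 and 1081 to 1516 CPM in the same order. Choroid plexus markers went the other way for fear (64.0 to 133 CPM in home cage, 46.9 to 60.5 in fear). The part of these markers was not tested. Of the 37 tested members, 12 did not overlap between fear and home cage and 14 did not between context and home cage. The same share over all genes is not given, so these counts cannot be read as particular to the members.

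Same-numbered home cage and fear libraries of CA1 deviated together (correlations of 0.28, 0.39 and 0.21), but the labels do not say that the number pairs libraries. The context libraries, which the block also covers, did not all correlate above 0.1 with either group. With the number as a block 1 member was called, Pde10a, higher by 0.46 ± 0.10 (adjusted p = 0.03844), with 4.42% of all genes. Without home cage library 1 there were 3 members called for fear (6.69% of all genes) and 2 for context (2.11% of all genes). Fear against context had 2 members and 918 of all genes at an unadjusted p under 0.05 and 0 called by DESeq2, with Pde1b (0.48 ± 0.19) and Pde1a (-0.45 ± 0.19) first.

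In LEC, none of the 37 members was called in the 3 comparisons, nor was any other gene (0%), and DESeq2 called 0 members in each. An unadjusted p under 0.05 in edgeR's test was reached by 3 members and 1242 of all genes for fear against home cage. It was reached by 0 members for context against home cage (403 of all genes) and for fear against context (207 of all genes). Pde4c, a sparse member of the rolipram-sensitive group, was 0.244, 0.27 and 0.371 CPM in home cage, 0.622, 0.486 and 0.686 CPM in context and 1.26, 1.41 and 0.787 CPM in fear. The groups were stacked without overlap, and fear exceeded home cage by 1.93 ± 0.49 with an adjusted p of 0.5266. Pde7b followed for fear (0.41 ± 0.16, adjusted p = 0.6044). For context Pde4d came first (0.30 ± 0.15) and Pde4c next (0.97 ± 0.49), and for fear against context Pde4c (0.95 ± 0.45) and Adcy1 (0.23 ± 0.13).

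**Figure D5:**
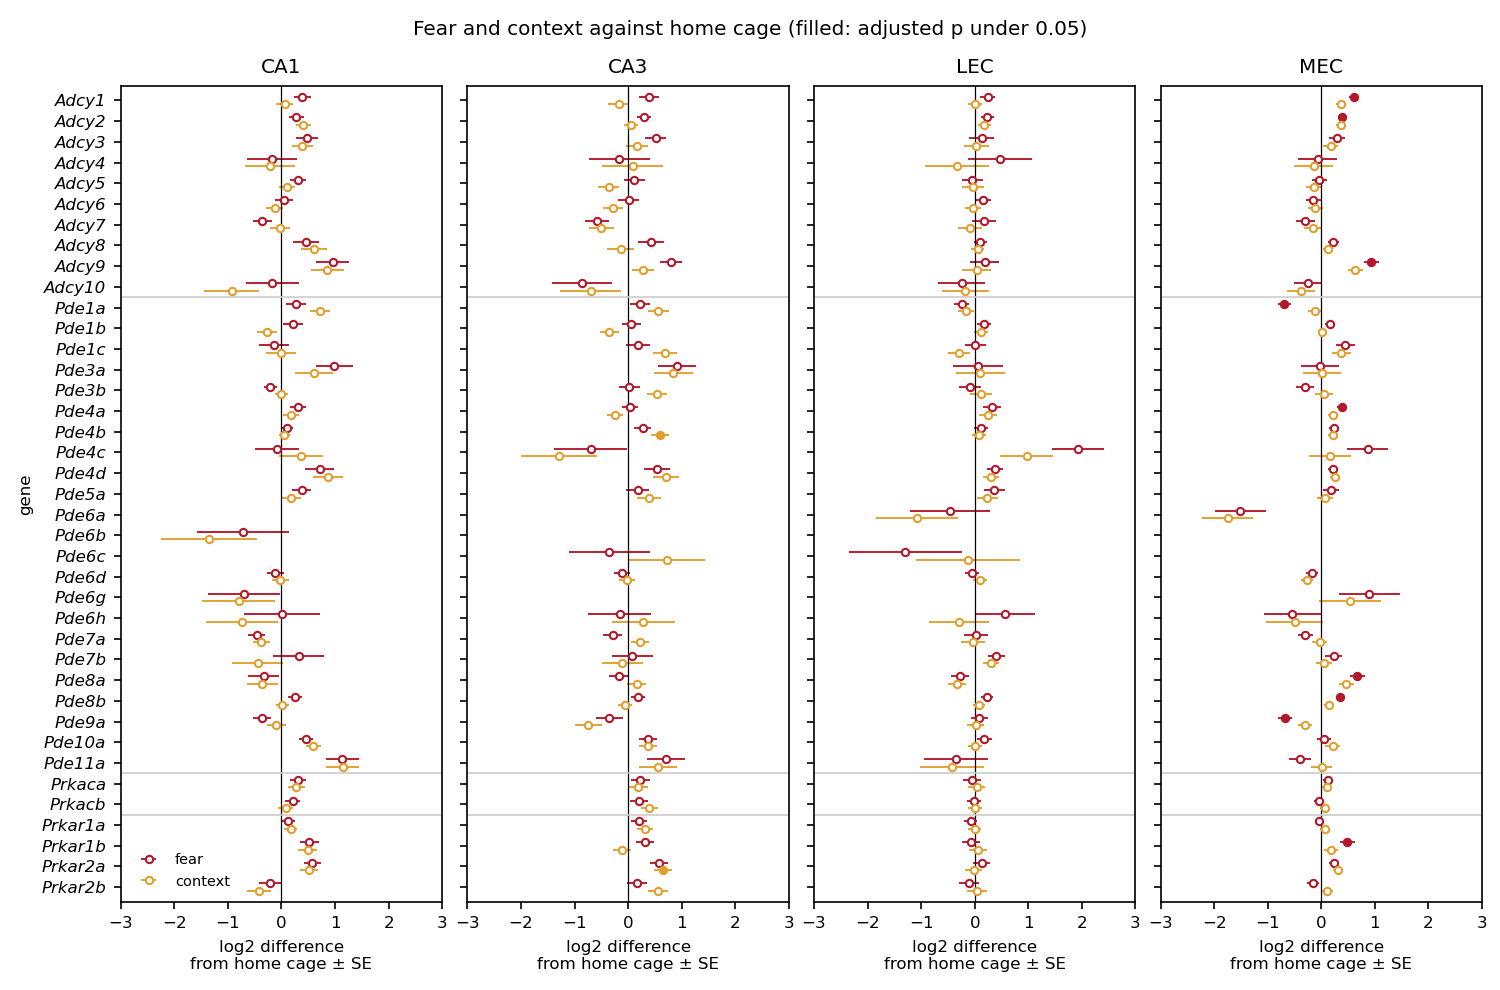
Log2 difference ± SE from home cage of each tested member after fear (red) and context (yellow) in the 4 regions, filled where the adjusted p was under 0.05. Filled points are 9 after fear in MEC and 2 after context in CA3; genes filtered out for low counts have no point.

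Set side by side, Adcy9 differed from home cage after fear by 0.93 ± 0.14 in MEC, 0.96 ± 0.31 in CA1, 0.80 ± 0.20 in CA3 and 0.19 ± 0.27 in LEC. Pde1a differed by -0.69 ± 0.12 in MEC, -0.25 ± 0.14 in LEC, 0.27 ± 0.19 in CA1 and 0.22 ± 0.19 in CA3. Whether such responses differed between regions was tested with interaction terms in the fit of all 36 libraries, and 0 of the 39 genes were called in any of the 6 tests. For the fear response of MEC minus LEC, where 0.0168% of all genes were called, the smallest p was that of Pde9a (-0.76 ± 0.24, adjusted p = 0.5096). For that of the entorhinal minus the hippocampal regions (0% of all genes) it was that of Pde1a (-0.71 ± 0.18, adjusted p = 0.2014), which also came first for the context response (-0.77 ± 0.18, adjusted p = 0.1524, 0% of all genes). Pde8a came first for the context response of MEC minus LEC (0.79 ± 0.30, adjusted p = 0.9999), and Pde6b, with 0 to 23 counts per library, for CA3 minus CA1 (2.95 ± 1.51 for fear and 5.60 ± 1.47 for context, adjusted p = 0.9957 and 0.1048), again with 0% of all genes called. In edgeR's test 3 members and 1165 of all 17875 genes had an unadjusted p under 0.05 for the fear response of MEC minus LEC. For CA3 minus CA1 these were 0 members and 712 genes, and for entorhinal minus hippocampal regions 8 members and 2072 genes. For the context response they were, in the same order, 2 members (384 genes), 11 members (4073 genes) and 6 members (2860 genes). DESeq2 called 1 member for each of fear and context in entorhinal minus hippocampal regions, 1 for context in CA3 minus CA1 and 0 in the rest.

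The neighbours of these genes in the pathway were read from lists of genes. In MEC after fear, against home cage, 1 of 7 G protein subunits was called, Gnao1, which couples inhibitory receptors (0.39 ± 0.09), and 1 of 8 other cAMP effectors, Rapgef3, a cAMP-activated exchange factor for Rap (0.63 ± 0.14). Of 17 anchoring proteins tested 1 was called, Akap13 (-0.45 ± 0.11). None of 10 CREB family members and coactivators, 5 inhibitors of PKA and protein phosphatase 1, or 11 cGMP cyclases and kinases was called. The medians of these 6 lists lay between -0.03 and 0.14, beside -0.01 for all genes. Of 16 activity-regulated genes, several of them known targets of CREB, 13 were called higher with a median of 1.27, led by Egr1 (1.39 ± 0.12) and Fosb (1.75 ± 0.20), and in context 5 were (median 0.84).

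In CA3 after context, with the calls limited as above, the inhibitor Ppp1r1a (-1.06 ± 0.21), which acts on protein phosphatase 1 once PKA has phosphorylated it, and the PKA inhibitor Pkig (-1.67 ± 0.35) were called lower, and 0 of 5 in their list were higher. The CREB coactivators Crtc1 (-0.78 ± 0.18) and Crtc3 (-0.85 ± 0.21) were called lower and 1 of 10 in that list was higher. Of 7 G protein subunits Gnai3 (0.56 ± 0.14) and 1 other were higher and Gnai2 (-0.67 ± 0.18) was lower. Of 16 anchoring proteins tested Akap9 (0.53 ± 0.15) and Nbea (0.75 ± 0.23) were higher, and of 7 other effectors Popdc3 (0.70 ± 0.22) was.

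Between entorhinal and hippocampal regions, 4 of 5 inhibitors were higher in the entorhinal regions (median 0.50), led by the PKA inhibitors Pkib (1.54 ± 0.10) and Pkia (0.50 ± 0.10). Of 7 G protein subunits 3 were higher and 0 lower, with Gnal (0.79 ± 0.08) and Gnas (0.41 ± 0.08), the stimulatory subunits, first. Of 8 other cAMP effectors 2 were higher and 5 lower (median -0.34), led by Bves, a cAMP-binding Popeye domain protein (-2.07), and Prkx (-0.52), and of 10 CREB family members and coactivators 1 was higher and 5 lower. Of 17 anchoring proteins 6 were higher and 7 lower, with Akap13 (-1.61 ± 0.06) and Akap12 (1.43 ± 0.08) first. Of 11 cGMP cyclases and kinases 6 were higher and 4 lower, with Prkg2 (4.00 ± 0.18), a cGMP-dependent kinase, first.

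The promoters of the genes called between conditions were searched for the cAMP response element, the site that CREB binds. The windows, from RefSeq on GRCm38.p6, reached from 250 bases before to 50 bases after each gene start, and 30 of the 39 genes had at least 1 of them. The full element TGACGTCA was in 588 of 32851 windows of all genes (1.79%) and in 2 of the 63 windows of the members (3.17%), which overlap and hold the same site of Prkar1a, 49 bases before one of its starts and 38 bases after another. Its core TGACG, which the full element contains, was counted on both strands and was in 6837 windows (20.8%) and in 15 of the 63 (23.8%). Of the 11 members called in MEC or CA3, 10 had a window and 8 a core: Adcy9, Pde1a, Pde4a, Pde4b, Pde8a, Pde8b, Prkar1b and Prkar2a, whereas Adcy1 and Adcy2 had none. Counted by gene, 13 of the 30 members and 6228 of 27025 genes (23%) had a core in at least 1 window. The 30 members had 63 windows and the 27025 genes 32851. Members thus had more windows per gene, and the shares by gene are not on an equal footing. A match is a run of letters, and no measurement of binding was made here. The stretches of the full element and of 5 cores that lie before a start site outside annotated exons are shown 5′ to 3′ along the strand of the gene, with the motif in capitals (CGTCA where it is on the opposite strand):
Prkar1a, full element starting 49 bases before a start site, chr11:109650889-109650918, plus strand: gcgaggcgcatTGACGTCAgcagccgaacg
Adcy9, core 24 bases before, chr16:4420499-4420548, minus strand: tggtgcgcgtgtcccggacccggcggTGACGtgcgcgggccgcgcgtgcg
Pde8a, core 84 bases before, chr7:81213155-81213211, plus strand: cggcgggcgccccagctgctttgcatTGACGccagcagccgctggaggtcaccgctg
Prkar1b, core 49 bases before, chr5:139150034-139150062, minus strand: tagagggcggagTGACGggcaggaggacg
Pde4a, core 50 bases before, chr9:21184039-21184067, plus strand: ggcacagctcgaCGTCAggctggggagga
Pde1a, core 166 bases before, chr2:80039052-80039080, minus strand: gtaacttcagccCGTCAttcctcagtaat
The stretches of Adcy9, Pde8a and Prkar1b lie upstream of the annotated gene (GENCODE M21). Those of Prkar1a, Pde4a and Pde1a lie within it, outside the exons of that annotation, before an internal start. The element of Prkar1a lies 38 bases after another RefSeq start, so it is not upstream of that one. Of these genes, Adcy9, Pde8a, Prkar1b and Pde4a were higher and Pde1a was lower in MEC after fear, and Prkar1a differed by -0.04 without being called.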

How the data were processed

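The authors deposited raw read counts, whole numbers for each gene, of 36 libraries. Per the labels' protocols, RNA was extracted with TRIzol and libraries made with the Illumina TruSeq Stranded mRNA kit. Per the submitters' processing notes, the tools were Trimmomatic 0.33, STAR 2.7.10b and HTSeq 2.0.1 and the build mm10. The annotation release and the settings, strand included, are not given in the sources used. Counts of overlapping genes are therefore uncertain, among them Adcy3, which shares 22.1% of its exonic length with Cenpo on the opposite strand. The 36 single-library files held the same counts as the table, and 0 rows lacked a gene. Of 37315 gene identifiers 35533 (95.2%) had a symbol in GENCODE M21 (GRCm38). Pde2a, whose identifier there was not matched, is not analysed here.

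Each region (9 libraries) was fitted in edgeR 4.0.16 (R 4.3.3) with filterByExpr, TMM and the robust quasi-likelihood test, and all 36 libraries were fitted together for region contrasts and interactions. Tested were 16163 genes in CA1, 16145 in CA3, 16402 in LEC, 16314 in MEC and 17875 over all. Levels are CPM of the TMM-scaled library size of the 36-library fit. Differences are log2 with SE. The fit was also run on simulated counts of independent libraries, with the same relative spread for all genes and no shifts in tissue composition. That run does not measure the error in these data. Precision is set by 3 libraries a group, and in each group these differed beyond sampling noise. Named were all called members, the 2 members of smallest p where none was called, in each region contrast the 5 largest called differences each way (mean log2 CPM 2 or more), and the 2 called genes of smallest p in the other lists (7 of pathways, 16 of cell types). Genes, lists and rules were chosen with earlier results of these data known.

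Alternatives were RLE size factors, no filter, DESeq2 1.42.0, the replicate number as a block, marker covariates, one 36-library fit, leaving out context 2 with home cage 2, and leaving out each library. Covariates in the region contrasts were added after seeing the data. Whether numbers pair libraries was checked by correlating deviations from group means over 11276 genes. All pairs passed 0.1 in 2 of the 12 comparisons within regions: fear and home cage in CA1 (0.28, 0.39 and 0.21) and context and home cage in MEC (0.58, 0.31 and 0.73). Between regions they did in 4 of 18: context in LEC and MEC, and fear in CA1 and CA3, CA1 and LEC, and CA3 and LEC.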

Additional observations from a re-analysis of the deposited data

How the results depend on the processing

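Of the 9 calls in MEC after fear none changed direction in any alternative. Members called against home cage after fear in CA1 (0) became 2 without the filter, 5 with DESeq2, 1 with the replicate block and 1 in the 36-library fit, and 0 to 3 with 1 library left out. After context in CA1 (0) they became 1, 5 and 4 without the filter, with DESeq2 and in the 36-library fit, and 0 to 2. After fear in CA3 (0) they became 2 with DESeq2, 2 in the 36-library fit and 0 to 2. After context in CA3 (2) they became 8 with DESeq2, 5 with the replicate block, 0 with the granule cell covariate, 0 without context 2 and home cage 2 together, 11 in the 36-library fit and 0 to 10. After fear in MEC (9) they became 1 with the oligodendrocyte covariate, 4 in the 36-library fit and 3 to 12, and with the replicate block 13. After context in MEC (0) they became 3 without the filter, 4 with DESeq2, 4 with the replicate block and 0 to 2. For fear against context they became 1 without the filter, with DESeq2 and with the replicate block in MEC (0 to 1), where Pde1a was the call under the block (-0.58, adjusted p = 0.002964), and 0 to 5 in CA3. With the replicate block MEC against LEC gave 14, CA3 against CA1 22 and entorhinal against hippocampal regions 26. Region contrasts gave 8 for MEC against LEC (10 to 14) and 10 for entorhinal against hippocampal regions (23 to 27) with the oligodendrocyte covariate, and 12 for CA3 against CA1 (15 to 22) and 13 for entorhinal against hippocampal regions with that of granule cells. With DESeq2, interactions gave 1 for fear and 1 for context in entorhinal minus hippocampal regions (0 to 1 for context) and 1 for context in CA3 minus CA1 (0 to 3). Over all genes, DESeq2 and the replicate block called 1458 and 715 (from 0) for fear in CA1, 560 and 667 (from 93) for context in MEC and 2447 and 3783 (from 1559) for fear in MEC, against home cage, where the oligodendrocyte covariate left 77 for fear in MEC. For context in CA3 DESeq2 called 4128 and the block 1330 (from 2243). The cause was not tested. The block and RLE factors reversed no named value. Reversed under the oligodendrocyte covariate were Pde8a between MEC and LEC (-0.0458) and, between entorhinal and hippocampal regions, Pde8b (-0.18), Pde7b (-0.25), Adcy7 (-0.06), Prkar2a (-0.19), Pde5a (-0.34) and Prkaca (-0.00893). Reversed under the granule cell covariate were Pde7b between CA3 and CA1 (0.22) and, between entorhinal and hippocampal regions, Pde1a (-0.0578) and Adcy1 (0.25). Genes under 10 counts in some library, such as Pde6b, were limited by depth.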
